A study of Mus musculus with 10 samples.

Results

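Proteasome genes were examined in single Bergmann glial cells of the postnatal mouse cerebellum. The members were all genes whose symbol consists of Psm, a letter from a to g and a number, on probe sets that had a value in every cell and were paired with exactly 1 gene. This gave 49 of the 17919 genes measured in this way, on 103 probe sets. The core particle was represented by 19 genes (Psma1 to Psma8 and Psmb1 to Psmb11) and the regulatory particle by 23 (Psmc1 to Psmc6, Psmd1 to Psmd14, and Psme1, Psme3 and Psme4). Another 5 members, the inhibitor Psmf1 and the core assembly chaperones Psmg1 to Psmg4, belong to neither particle. The last 2 members, Psmc3ip and Psme3ip1, match the rule by their letters but encode no proteasome subunit, so they entered no particle. Psme2 was not used here because its probe set is paired with both Psme2 and Psme2b.

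The proteasome is the protease that degrades most short-lived and damaged proteins of a cell after they have been tagged with ubiquitin. Its core particle is a barrel of alpha subunits, which form the gates at both ends, and beta subunits, some of which carry the proteolytic sites inside. The regulatory particle caps the barrel: a ring of ATPases unfolds the substrate and threads it in, while receptors and a deubiquitinase in the base and lid bind and trim the ubiquitin chain. In cells exposed to interferon, immune beta subunits replace the constitutive catalytic ones, and dedicated chaperones assemble both particles.

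The study profiled gene expression of Bergmann glia, a specialized astroglial cell of the cerebellum, at a stage of growth and at maturity. Each of the 10 arrays held amplified cDNA of 1 cell, 5 cells from mice at postnatal day 6 (P6) and 5 from mice at postnatal day 30 (P30). All cells came from the middle sagittal portion of the cerebellum of untreated animals of a GFAP-GFP reporter line, in which the promoter of the astroglial gene Gfap drives green fluorescent protein. Cells were picked by this fluorescence and by their shape, and only cDNAs with ubiquitous and glial transcripts and without the neuronal ones tested were hybridised, so that these cells are a selected set. The animal of each cell is not named, and each age was therefore treated as a single sample of cells, and no test of the ages or standard error is given. Each SD and range describes 5 cells of an age.

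The deposited values express each probe set relative to its own median and give no level, so that members can be compared between cells but not with each other. In 69.5% of complete probe sets the median of the P6 cells was within 0.0005 of 1, although the methods name the median over all samples as the divisor. P6 values and their medians over gene lists thus sit near 0 on the log2 scale partly by construction, while differences between cells of a probe set do not depend on the divisor. A difference below is the mean log2 ratio at P6 minus that at P30, a fold is the ratio of geometric means, and over 3-fold means a difference beyond 1.58. Of the complete values, 1.07% at P6 and 1.73% at P30 lay at the floor of the ratios, 0.01 or -6.64 on the log2 scale. The astroglial markers, 12 of 12 measured, had a median difference of -0.38 with none over 3-fold, although ratios cannot show whether a marker was present. In P6 replicate 5, 6 of 8 neuronal markers lay over 3-fold above the median of the other P6 cells, and in P30 replicate 5 the same was true of 6 of 8 endothelial and pericyte markers, 3 of 4 Purkinje neuron markers and 3 of 5 granule neuron markers. The medians of the neuronal markers ranged from -1.39 to 3.27 at P6 and from -1.40 to 0.51 at P30, and those of the endothelial and pericyte markers from -0.36 to 0.00 at P6 and from -0.88 to 2.94 at P30. Fewer markers stood out in other cells. In P6 replicate 2, 2 of 4 Purkinje neuron markers lay over 3-fold above the other P6 cells. In P30 replicate 4 and in P30 replicate 5, 2 of 5 oligodendrocyte markers lay over 3-fold above the other P30 cells. P30 replicate 4 also had 1 of 8 neuronal markers over 3-fold above and 4 of 8 endothelial and pericyte markers over 3-fold below. The part of these cells in the differences was not tested, and values without them are given with the particles.

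The median differences of both particles lay a little toward P6, and most of their genes differed by less than 2-fold. In the core particle the median difference over 19 genes was 0.32, and 12 of them (63.2%) had the higher mean at P6. In the regulatory particle the median over 23 genes was 0.36, and 18 (78.3%) had the higher mean at P6. The median over the genes of a particle in each cell had a pooled SD within ages of 0.35 in the core and 0.20 in the regulatory particle. These SDs belong to the cell medians and not to the median difference over genes. The cell medians had means of -0.02 at P6 and -0.48 at P30 in the core. In the regulatory particle the means were -0.07 and -0.70, with SDs of 0.06 and 0.28, the P6 values being held near 0 partly by construction. Over all genes the median difference was 0.05 and 52.4% had the higher mean at P6. A difference of less than 2-fold was found in 15 of 19 core genes (78.9%), in 15 of 23 regulatory genes (65.2%) and in 70.1% of all genes.

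Over 3-fold higher at P6 were 2 of 19 core genes (10.5%), Psmb5 and Psmb10, beside 9.39% of all genes. The regulatory particle had 4 of 23 such genes (17.4%), the ATPase Psmc5, the lid subunit Psmd8 and the base chaperones Psmd5 and Psmd10. No gene of either particle was over 3-fold higher at P30, which 4.93% of all genes were. The core share was thus close to that of all genes. Without the 3 base chaperones, which are no part of the finished particle, the regulatory count was 2 of 20, also close to that of all genes, and the median was 0.31. These 20 still included the activators Psme1, Psme3 and Psme4, which cap the core in place of the regulatory particle. All 5 P6 cells lay above all 5 P30 cells in 1 core gene, Psmb6, and in 1 regulatory gene, Psmd6, where 2.13% of all genes did so, and no member of either particle had all P30 cells above all P6 cells, beside 1.41% of all genes.

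**Figure D1:**
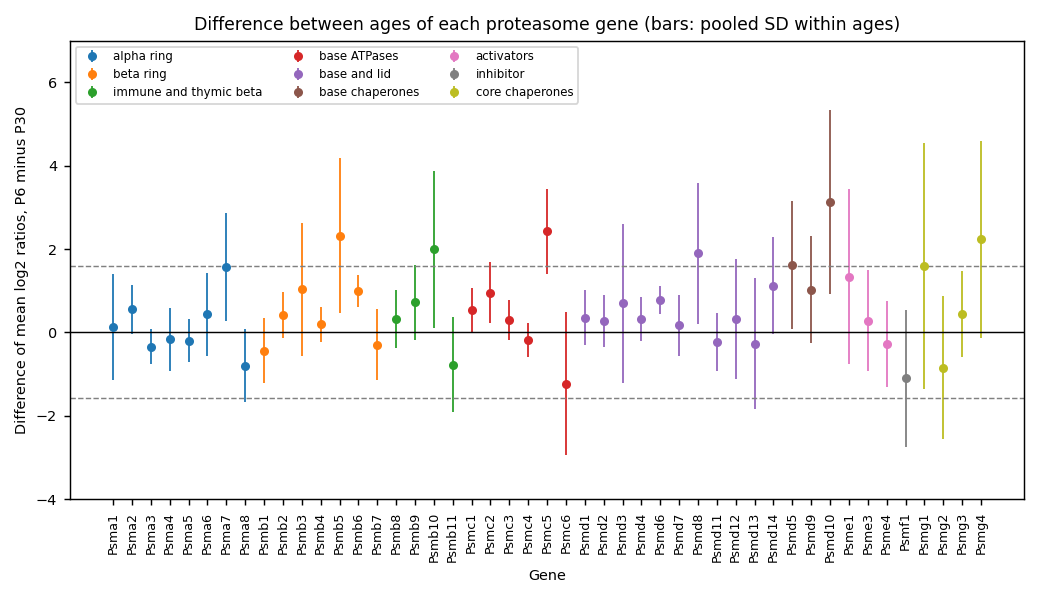
Difference of the mean log2 ratio, P6 minus P30, of 47 proteasome genes by functional group, with bars of the pooled SD within ages; dashed lines mark 3-fold. Most points lie above 0, and most within 1 unit of it, the highest is Psmd10 at 3.13, and no point lies below the lower dashed line.

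P30 replicate 4 bore on these counts more than any other cell. Without it, no core gene was over 3-fold higher at P6, 2 regulatory genes were (Psmc5 and Psmd10), and 1, Psmc6, was over 3-fold higher at P30, beside 9.18% and 5.66% of all genes. The medians were then 0.22 for the core and 0.37 for the regulatory particle. The core median moved furthest on leaving out P6 replicate 2, to 0.09, and P6 replicate 5, to 0.55. It was 0.49 without P6 replicate 4 and 0.20 without P30 replicate 2. The regulatory median was 0.64 without P6 replicate 2, 0.57 without P30 replicate 2 and 0.56 without P30 replicate 1. Leaving out P30 replicate 5 gave 0.29 for the core and 0.35 for the regulatory particle, and leaving out P6 replicate 5 gave 0.48 for the latter. The counts over 3-fold higher at P6 were 2 and 4 without P30 replicate 5 and 3 and 4 without P6 replicate 5. Of the 42 genes of both particles, 9 with differences between 0.12 and 0.43 in size took the opposite sign when 1 cell or another was left out: Psma1, Psma4, Psma6, Psmd1, Psmd7, Psmd12, Psmd13, Psme3 and Psme4.

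The particles also differed in how they sat within each cell. The median log2 ratio of the 23 regulatory genes was -0.05, 0.01, -0.09, -0.08 and -0.14 in P6 replicates 1 to 5 and -0.30, -0.64, -0.70, -1.09 and -0.77 in P30 replicates 1 to 5. Every P30 cell thus lay below every P6 cell. Without the 3 base chaperones the medians ran from -0.19 to 0.02 at P6 and from -1.06 to -0.34 at P30. For the core particle the medians were -0.03, 0.40, 0.00, -0.14 and -0.35 at P6 and -0.10, -0.73, -0.19, -0.31 and -1.08 at P30, and the ages overlapped. The median of all genes was itself lower at P30, from -0.49 to -0.18 beside -0.20 to 0.00 at P6. Relative to all genes of the same cell, the regulatory medians ran from -0.07 to 0.07 at P6 and from -0.81 to -0.12 at P30, which kept the ages apart. Most probe sets were divided by the median of their P6 cells, which holds such list medians near 0 at P6. Setting them against all genes does not remove this, so the separation of the ages is partly by construction. The core medians, set against the same base, ran from -0.15 to 0.40 at P6 and from -0.59 to 0.08 at P30.

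**Figure D2:**
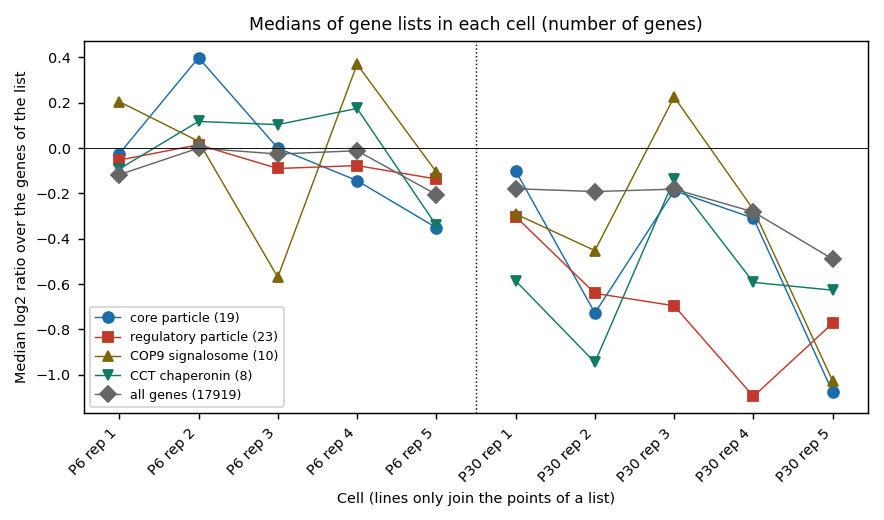
Median log2 ratio in each of the 10 cells over the core particle, the regulatory particle, the COP9 signalosome, the CCT chaperonin and all genes, with the number of genes in the legend; lines only join the points of a list within an age. The regulatory particle lies between -0.14 and 0.01 in the P6 cells and between -1.09 and -0.30 in the P30 cells, while the other 4 lists, all genes included, overlap between ages. Medians of the P6 cells sit near 0 partly by construction.

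Of the single cells, a pair at P30 had the most members far from the other cells of their age. In P30 replicate 4, 10 of the 42 genes of both particles (23.8%) lay over 3-fold below the median of the other P30 cells, beside 15.1% of all genes in that cell: Psma7, Psmb3, Psmb5, Psmb10, Psmc2, Psmc6, Psmd8, Psmd9, Psmd12 and Psme1. P30 replicate 1 was the opposite case, with 9 of 42 (21.4%) over 3-fold above the others and none below, beside 12.8% of all genes above. The median pooled SD within ages was 0.85 for the core, 1.04 for the regulatory particle and 1.04 for all genes. Within the regulatory particle, 18 of 23 genes (78.3%) had the larger SD at P30, with a median SD of 0.62 at P6 and 1.27 at P30. For all genes the larger SD was at P30 in 54.7%, and the medians were 0.92 and 0.97.

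**Figure D3:**
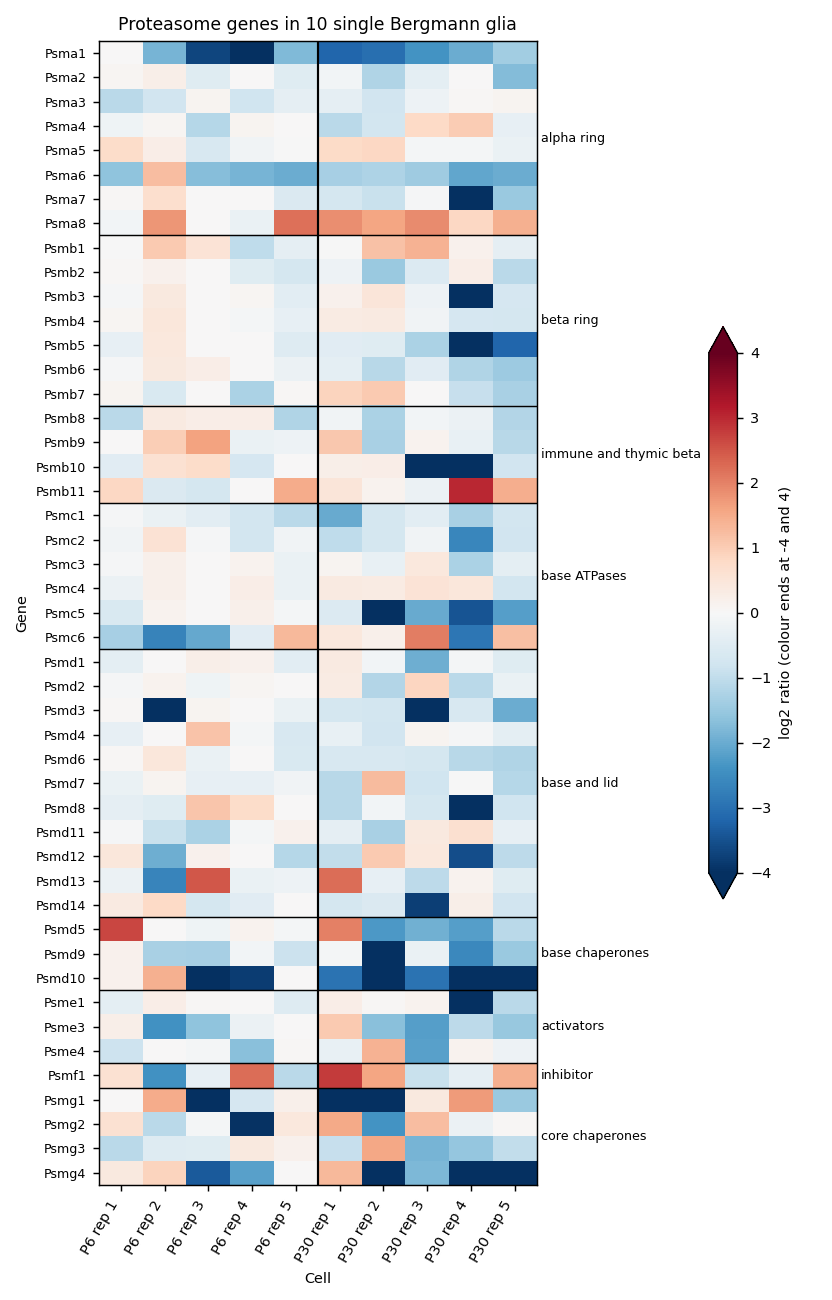
Log2 ratio of 47 proteasome genes (rows, by functional group) in the 10 cells (columns, P6 left of the vertical line), with colours ending at -4 and 4. Low values in P30 replicate 4 include Psmb3 at -4.95, Psmd8 at -5.76 and Psme1 at -6.64, while Psmd10 and Psmg4 are low in cells of both ages. In P30 replicate 4, 15.1% of all genes lay over 3-fold below the other P30 cells. Values of the P6 cells sit near 0 partly by construction.

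The alpha ring, which gates the core, showed no common direction. Its 8 genes had a median difference of -0.02, and 4 were higher at each age. Psma7 had log2 ratios of 0.05, 0.66, 0.00, 0.00 and -0.59 in P6 replicates 1 to 5 and of -0.71, -0.88, -0.04, -4.61 and -1.49 in P30 replicates 1 to 5. Its difference of 1.57 (2.97-fold) was just below 3-fold and was 0.80 without P30 replicate 4, the one cell far below the rest. Psma8, the alpha subunit known from the testis, gave -0.10, 1.76, 0.00, -0.26 and 2.20 at P6 and 1.87, 1.58, 1.90, 0.82 and 1.42 at P30. All P30 cells were thus high, P6 cells were high in replicates 2 and 5 only, and the difference was -0.80.

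The other alpha genes differed by between -0.34 (Psma3) and 0.56 (Psma2), with Psma5 at -0.20 and Psma4 at -0.17. Gene means of Psma1 (0.12), Psma3 and Psma6 (0.43) joined unlike probe sets. The 2 probe sets of Psma3 differed by -1.30 and 0.61, and the 3 of Psma5 by between -0.36 and 0.07. The 4 probe sets of Psma1 differed by between -1.79 and 1.62, and 1 of the 4 of Psma6, which lay at the floor in 9 of 10 cells, kept its gene mean below 0 in all but P6 replicate 2.

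In the beta ring, 5 of 7 genes had the higher mean at P6 and the median difference was 0.42. The catalytic subunits of the constitutive core gave 3 different patterns. Psmb5, which carries the chymotrypsin-like site, had log2 ratios of -0.34, 0.42, 0.00, 0.00 and -0.51 at P6 and of -0.44, -0.50, -1.27, -6.64 and -3.18 at P30. P30 replicates 1 and 2 lay within the P6 range, replicate 4 lay at the floor, and the P6 mean was -0.09 ± 0.36, that at P30 being -2.41 ± 2.62 (SD, 5 cells per age). This put P6 at least 4.99-fold above P30 with all cells, whereas the difference of 2.32 became 1.26 without P30 replicate 4.

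Psmb6, with the caspase-like site, differed less and more evenly. Its log2 ratios were -0.04, 0.40, 0.25, 0.00 and -0.23 at P6 and -0.39, -1.10, -0.44, -1.19 and -1.47 at P30. The difference was 1.00 (1.99-fold, pooled SD 0.38), no cell of one age reached the other, and each cell left out in turn gave between 0.86 and 1.13. Psmb7, which carries the trypsin-like site, had 0.10, -0.62, 0.00, -1.26 and 0.06 at P6 and 0.90, 1.06, 0.01, -0.91 and -1.30 at P30, a difference of -0.29 with overlapping ages.

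Of the beta subunits without a proteolytic site, Psmb3 gave -0.04, 0.40, 0.00, 0.09 and -0.41 at P6 and 0.18, 0.47, -0.19, -4.95 and -0.66 at P30. Its difference of 1.04 rested on P30 replicate 4 and was 0.06 without that cell. Psmb1 (-0.44), Psmb2 (0.42) and Psmb4 (0.20) completed the ring.

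The stretch before the Psmb5 start is shown because Psmb5 and Psmb6 hold the antioxidant response motif TGACNNNGC, which transcription factors such as Nfe2l1 and Nfe2l2 bind. Psmb7 was not among the genes with a sequence, and the 3 immune counterparts, which were, did not hold these letters in their windows. The 250 bases before the Psmb5 start lie at chr14:54617996-54618245 on the minus strand (RefSeq, GRCm38.p6), next to the annotated gene and outside it, with the motif in capitals:
Psmb5: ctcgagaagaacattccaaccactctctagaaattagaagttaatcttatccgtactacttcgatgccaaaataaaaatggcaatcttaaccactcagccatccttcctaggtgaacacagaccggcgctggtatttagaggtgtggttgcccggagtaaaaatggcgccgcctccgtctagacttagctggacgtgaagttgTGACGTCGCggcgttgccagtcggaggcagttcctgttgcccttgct

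The other members with this motif are given by the match, in capitals, and up to 10 bases on each side. They lie at chr11:70525338-70525356 (Psmb6, at the end of its window and inside the annotated gene), chr14:45329587-45329615 (Psmc6), chr5:123228149-123228177 (Psmd9) and chr11:107479278-107479299 (Psmd12), all read on the plus strand, and those of Psmc6 and Psmd12 are matches on the opposite strand:
Psmb6: ctaaagagagTGACGGAGC
Psmc6: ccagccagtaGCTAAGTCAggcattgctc
Psmd9: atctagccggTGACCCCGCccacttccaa
Psmd12: tctGCTGTGTCAcatttgcccc

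Among the 35 of 42 particle genes with a sequence in the table used, these 5 (14.3%) had the motif on either strand in the 250 bases before the first listed start, where 10.1% of 27025 promoters had it. CCAAT, the box bound by NF-Y, was present in 14 of 35 (40.0%) beside 34.5% of all promoters. By particle it was found in 8 of 15 core promoters (53.3%) and 6 of 20 regulatory ones. None of the 5 stretches above came from a window with CCAAT. Of the 5 genes with TGACNNNGC, Psmb5 (2.32), Psmd9 (1.02), Psmb6 (1.00) and Psmd12 (0.32) had the higher mean at P6. The fifth, Psmc6, had the lower (-1.23). Among all 42 particle genes, 30 (71.4%) had the higher mean at P6. The probe sets of Psmc6 and of Psmd9 (-0.14 to 2.55) went in both directions, and Psmd12 was at -0.37 without P30 replicate 4. A link between the motif and age was not tested.

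The immune beta subunits each replace one constitutive catalytic subunit in cells exposed to interferon. All 3 had the higher mean at P6, beside 52.4% of all genes, with a median difference of 0.73. The ages overlapped in each, and the 2 probe sets of Psmb8 differed by 0.69 and -0.05. Psmb8, the counterpart of Psmb5, had log2 ratios of -1.06, 0.36, 0.27, 0.28 and -1.21 at P6 and of -0.16, -1.27, -0.11, -0.23 and -1.18 at P30, a difference of 0.32. Psmb9, the counterpart of Psmb6, gave 0.00, 0.97, 1.62, -0.28 and -0.21 at P6 and 1.06, -1.30, 0.13, -0.31 and -1.10 at P30. In both genes cells of either age were high or low, and the difference of Psmb9 was 0.73 with a pooled SD of 0.90. Psmb10, the counterpart of Psmb7, had -0.46, 0.62, 0.72, -0.66 and 0.00 at P6 and 0.23, 0.28, -4.83, -4.66 and -0.77 at P30. Its difference of 1.99 (3.99-fold) came from P30 replicates 3 and 4, while P30 replicates 1 and 2 lay within the P6 range, and leaving out P30 replicate 3 gave 1.28. The median difference of the 3 genes was 0.43 without P6 replicate 3 and 0.48 without P30 replicate 2.

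Markers of immune and vascular cells were read beside these genes. P30 replicate 5, in which endothelial and pericyte markers lay at a median of 2.92 above the other P30 cells, had its immune subunits at -1.18 (Psmb8), -1.10 (Psmb9) and -0.77 (Psmb10). In P6 replicate 3, which had the highest ratios of Psmb9 and Psmb10 among the P6 cells, 2 of 8 microglial markers lay over 3-fold above the other P6 cells and their median lay 0.95 above; the part of this in the values was not tested. Microglial markers had medians from -0.46 to 0.48 at P6 and from -0.99 to 0.61 at P30. The thymic subunit Psmb11 gave 0.82, -0.59, -0.71, 0.00 and 1.47 at P6 and 0.49, 0.15, -0.23, 3.01 and 1.44 at P30, a difference of -0.77 within the spread between cells.

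**Figure D4:**
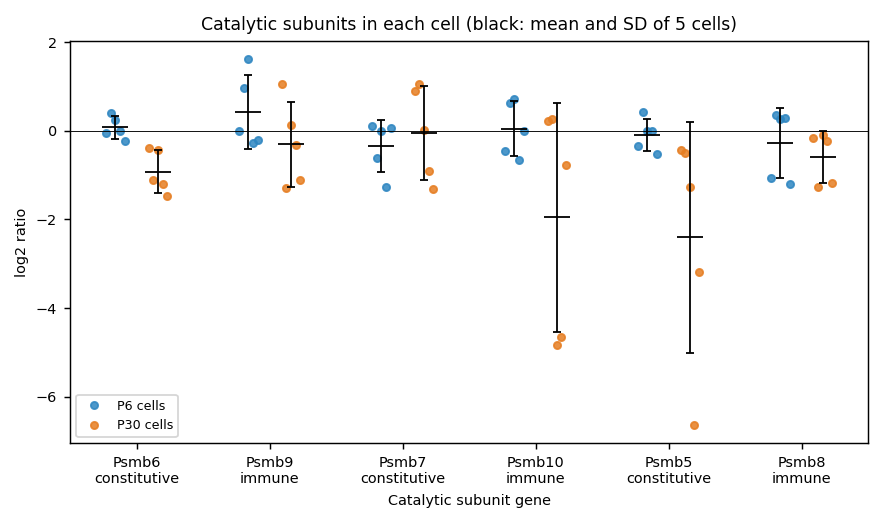
Log2 ratio of the 3 constitutive catalytic subunits, each beside its immune counterpart, in 5 P6 cells and 5 P30 cells, with the mean and SD of each age in black. Psmb6 alone has every P6 cell above every P30 cell, and the low P30 means of Psmb10 (-1.95) and Psmb5 (-2.41) rest on 2 cells each, from -6.64 to -3.18.

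Of the 6 ATPases of the base, 4 had the higher mean at P6 and the median difference was 0.41. Psmc5 had log2 ratios of -0.62, 0.15, 0.00, 0.21 and -0.07 at P6 and of -0.55, -4.21, -2.03, -3.45 and -2.20 at P30. P30 replicate 1 was the one P30 cell inside the P6 range, and the other 4 lay below every P6 cell. The difference was 2.42 (5.36-fold, pooled SD 1.02). It stayed over 3-fold in all 17 alternatives, between 1.99 and 2.91. Psmc5 has 1 probe set, so the alternatives that choose or combine probe sets could not change its value.

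Psmc6 showed how far probe sets of 1 gene could part. The gene mean was -1.32, -2.68, -2.04, -0.46 and 1.29 at P6 and 0.42, 0.20, 2.05, -2.89 and 1.21 at P30, a difference of -1.23. Its 3 probe sets differed by -3.49, -2.30 and 2.09, so that no direction can be given for this gene. The remaining ATPases were Psmc2 at 0.96, with 3 probe sets that differed by between 0.73 and 1.21, Psmc1 at 0.53, Psmc3 at 0.30 and Psmc4 at -0.19.

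The other subunits of the base and the lid, which bind ubiquitin chains, build the lid scaffold or cut the chain off, had the higher mean at P6 in 9 of 11 genes, with a median difference of 0.32. The lid subunit Psmd8 gave -0.35, -0.48, 1.11, 0.72 and 0.00 at P6 and -1.12, -0.10, -0.70, -5.76 and -0.81 at P30. Its difference of 1.90 (3.72-fold) was 0.88 without P30 replicate 4, the one cell far below the others. Psmd14, the deubiquitinase that removes the chain before the substrate enters, had 0.35, 0.81, -0.71, -0.44 and 0.00 at P6 and -0.72, -0.58, -3.76, 0.24 and -0.76 at P30. Here P30 replicate 3 stood alone, and the difference of 1.12 (2.17-fold) was 0.46 without it.

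Psmd6, a lid scaffold subunit, was the regulatory gene whose ages did not overlap. Its log2 ratios were 0.04, 0.44, -0.28, 0.00 and -0.60 at P6 and -0.64, -0.64, -0.70, -1.09 and -1.19 at P30. The gap between the lowest P6 cell and the highest P30 cell was small, and the difference was 0.77 (1.71-fold, pooled SD 0.33). Both of its probe sets had the same direction, at 0.66 and 0.89. The ages were apart in the second only. In the first, P6 replicate 5 (-0.55) lay just below P30 replicate 1 (-0.54).

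The rest of the base and lid lay between -0.27 (Psmd13) and 0.70 (Psmd3). The value of Psmd3 ran from 0.02 without P30 replicate 3 to 1.67 without P6 replicate 2, the cells in which it stood at -4.41 and -4.88. The large base subunits Psmd1 and Psmd2, which hold docking sites for ubiquitin carriers, differed by 0.36 and 0.27, and Psmd4, a ubiquitin receptor, by 0.31. The lid subunits Psmd11, Psmd12 and Psmd7 differed by -0.23, 0.32 and 0.17. The value of Psmd7 is a mean of 3 probe sets at 3.48, -1.13 and -1.84.

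The 3 base chaperones, which hold ATPases during assembly and leave before the particle is complete, all had the higher mean at P6, with a median difference of 1.61. Psmd10, also called gankyrin, had log2 ratios of 0.16, 1.43, -4.89, -3.79 and 0.00 at P6 and of -2.95, -6.07, -2.94, -5.18 and -5.57 at P30. All P30 cells were low, and P6 replicates 3 and 4 were as low as they. The difference of 3.13 (8.73-fold) was the largest of the 49 members and stayed over 3-fold in all 17 alternatives, between 2.16 and 5.18, with a pooled SD of 2.21. Psmd10 too has 1 probe set, so the alternatives that choose or combine probe sets could not change its value.

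Psmd5 gave 2.66, 0.00, -0.18, 0.16 and -0.07 at P6 and 2.01, -2.29, -1.93, -2.20 and -1.07 at P30. Within each age replicate 1 was far above the other cells, which otherwise did not overlap between ages. The difference of 1.61 (3.05-fold) was 2.39 without P30 replicate 1 and 1.07 without P6 replicate 1. Psmd9 differed by 1.02, with probe sets between -0.14 and 2.55.

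Activators cap the core in place of the regulatory particle. Psme1, a subunit of the activator induced by interferon, had -0.40, 0.27, 0.06, 0.00 and -0.52 at P6 and 0.28, 0.04, 0.13, -6.64 and -1.06 at P30. With P30 replicate 4 at the floor the P6 mean was higher by at least 2.52-fold, without that cell the difference was 0.04, and with medians over cells it was -0.04. Psme4, the large activator known from the testis, had -0.82, 0.01, -0.09, -1.66 and 0.04 at P6 and -0.30, 1.38, -2.16, 0.14 and -0.19 at P30, a difference of -0.28, and the nuclear activator Psme3 differed by 0.28. Neither of the last 2 had ages apart, and the probe sets of each went in both directions. They differed by between -1.48 and 0.94 in Psme4 and between -1.13 and 2.22 in Psme3.

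Outside the particles, the inhibitor Psmf1 gave 0.62, -2.42, -0.32, 2.23 and -1.07 at P6 and 2.80, 1.59, -0.90, -0.35 and 1.43 at P30. Its difference was -1.11, and its 4 probe sets lay between -2.36 and 0.71. The core chaperones, which bring alpha subunits together, included 2 of 4 genes over 3-fold higher at P6, beside 9.39% of all genes. Psmg4 had log2 ratios of 0.38, 0.90, -3.37, -2.17 and 0.00 at P6 and of 1.30, -4.71, -1.78, -5.03 and -5.18 at P30, a difference of 2.23 (4.69-fold). Psmg1, the other, gave 0.00, 1.48, -4.29, -0.66 and 0.21 at P6 and -6.64, -5.17, 0.39, 1.71 and -1.49 at P30, at least 3.01-fold with a difference of 1.59, which stayed over 3-fold in 9 of 17 alternatives. In both genes cells of either age ranged from above 0 to under -3, with pooled SDs of 2.37 and 2.96. The gene means of Psmg2 (-0.85) and Psmg3 (0.45) did not reach 3-fold, but the probe sets of each went in both directions. They differed by between -2.57 and 0.35 in Psmg2 and by -1.26 and 2.15 in Psmg3.

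Psmc3ip, a partner of meiotic recombinases, differed by 1.97 (3.91-fold) on 0.00, 0.78, 1.15, -1.68 and -0.29 at P6 and -4.91, 1.74, -2.25, -3.68 and -0.79 at P30. Psme3ip1, which binds the activator Psme3, differed by -1.46 on -0.06, 0.00, -2.48, 1.21 and 0.57 at P6 and 1.54, 1.74, -0.83, 1.27 and 2.80 at P30. The ages overlapped in both.

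Genes that feed or serve the proteasome were read from a list of 32, of which 23 had a value. Their median difference was 0.55, 15 of 23 had the higher mean at P6, and the 3-fold mark was passed by 3 genes (13.0%) toward P6 and by 1 (4.35%) toward P30. These shares were near those of all genes, 9.39% and 4.93%. Sem1, a small subunit of the regulatory particle that the symbol rule does not take in, had log2 ratios of 0.51, 1.11, -0.08, -0.06 and 0.00 at P6 and of -0.92, -2.10, -1.79, -3.36 and -2.08 at P30. No P30 cell reached the P6 cells, and the difference was 2.34 (5.07-fold, pooled SD 0.72). The study had already picked Sem1 on these cells, under an older symbol, so that its direction is no independent evidence.

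The ubiquilin Ubqln4, which carries ubiquitylated proteins, differed by 2.09, with 1 of its P30 values at the floor. Nploc4, a cofactor of the segregase Vcp, differed by 1.92, at least 3.77-fold, with P30 cells from -6.64 to 1.99. Nfe2l2, a transcription factor of the oxidative stress response, was the gene higher at P30, at -1.75, -0.20, 0.82, -0.22 and -2.43 at P6 and -0.28, 0.43, 1.89, 1.58 and 2.26 at P30, a difference of -1.93 (3.82-fold). Nfe2l1, which drives proteasome genes when the proteasome is impaired, had the same mean of -0.23 at both ages. The median of the list was 0.25 without P30 replicate 4 and 0.35 without P30 replicate 2 or P6 replicate 4.

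Lists of a related and an unrelated complex had larger median differences toward P6 than the core (0.32) and regulatory (0.36) particles. The COP9 signalosome, a relative of the lid, had a median difference of 0.70 over 10 genes, 7 of them higher at P6 and none over 3-fold; Cops5, its catalytic subunit, differed by 1.48 and Cops9 by 1.26. The CCT chaperonin, which folds actin and tubulin, had a median of 0.67 over 8 genes, 7 of them higher at P6 and none over 3-fold, with Cct6a at 1.26 and Cct2 at 1.22. Antigen processing genes, which act on peptides that the immunoproteasome makes, had a median of 0.06 over 9 of 10 genes, 5 of them higher at P6 and none over 3-fold. Of these, H2-K1, a class I antigen, differed by -1.22, and Nlrc5, a regulator of class I genes, by -1.10 with P30 replicate 5 at 3.96 and all other cells at 0.89 or lower. The study lists probe sets of H2-D1, also a class I antigen, as detected at P30 but not at P6. Here the mean over its 9 probe sets differed by -0.84, a measure unlike detection.

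Another scaling of the arrays would move all genes together. Dividing each array by its median would lower the median difference of all genes by 0.16, to -0.11, and dividing by the hybridisation spikes would raise it by 0.29, to 0.34. Under either, the core median lay 0.27 and the regulatory median 0.31 above that of all genes, which such a scaling cannot change. Leaving out cells did change it. The core lay between 0.05 (without P6 replicate 2) and 0.49 (without P6 replicate 5) above all genes. It was 0.13 without P30 replicate 2. The regulatory particle lay between 0.29 (without P6 replicate 4) and 0.61 (without P6 replicate 2) above them.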

How the data were processed

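Amplified cDNA of 10 single Bergmann glia was hybridised to Affymetrix mouse genome arrays, 1 cell per array. The deposited values are linear ratios: the authors processed the scans with RMA in GeneSpring GX 7.3, set values under 0.01 to 0.01, then scaled every array to its median and, by their methods, every probe set to its median across samples (the values show that of the P6 cells in most probe sets). The RMA version and a genome build are not given in the sources used here. In the series table, 10 values of 0 were set to 0.01.

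Of 45101 probe sets, 43608 were complete over all cells, and the 1493 left out (1013 with values at P30 only, 480 with none) held no member. Probe sets were paired with genes through the platform annotation, with symbols from RefSeq (GRCm38.p6): 34958 had 1 gene, 932 several and 9211 none. Log2 ratios were averaged over the probe sets of a gene; 22 members had 1 probe set and 27 several, and in 12 of the 27 all had the same direction. Reverse transcription was primed with oligo-dT under limiting conditions, so that cDNA covers the ends of transcripts; its part in the disagreement between probe sets was not tested.

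Ages were compared by differences of means, with a 3-fold size rule, and by whether their cells overlapped. Members, lists and tests were chosen with earlier results of these data known. Values in every cell are given for members over 3-fold, catalytic subunits and their immune counterparts, Psmd14 and the 2 largest differences of each group. Of other lists, genes over 3-fold and the 2 largest differences were eligible. Genes named beyond this (Psmd6, Nfe2l1, H2-D1) were chosen after their values were seen. Markers of granule neurons, oligodendrocytes and Purkinje neurons had median differences of -0.15, -1.27 and -0.81, those of microglia 0.37, neurons 0.35, and endothelium and pericytes -0.40. The number of arrays limits the precision, and signal over background was not used here.

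Python 3.11.15, NumPy 2.4.6, pandas 2.3.3 and Matplotlib 3.10.9 were used, and the steps were tested on simulated data. Alternatives were 2 scalings, a floor of 0.1, medians over probe sets or cells, leaving out the _x_at and _s_at probe sets, each cell left out, and, chosen after seeing the data, the probe set of each gene with the lowest SD within ages and the regulatory particle without its base chaperones.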

Additional observations from a re-analysis of the deposited data

Results flagged for a closer look

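A single cell far from the other 4 of its age, by a gap of more than 0.71 of the range, was found in 11 of 102 groups of 5 cells tested (10.8%). Chance gives about 1 in 20 for normally distributed values, and over all genes the share by the same measure was 9.26%, so that the members' share was near that of other genes. In P30 replicate 4, Psmb3 (-4.95), Psmd8 (-5.76) and Psme1 (-6.64, the floor) lay far below the other P30 cells. Other low cells were Psmd14 in P30 replicate 3 (-3.76), Psmc4 in P30 replicate 5 (-0.74), Psmd3 in P6 replicate 2 (-4.88) and Psma4 in P6 replicate 3 (-1.13). High cells were Psmd5 in P6 replicate 1 (2.66) and in P30 replicate 1 (2.01), Psma6 in P6 replicate 2 (1.23) and Psmg3 in P30 replicate 2 (1.54). Their causes were not tested.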

How the results depend on the processing

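The median difference of the core stayed above 0 in all 17 alternatives, as did that of the regulatory particle. Spike scaling gave 0.61 for the core and 0.65 for the regulatory particle, and median scaling of the arrays 0.16 and 0.20, and the regulatory median was 0.59 with the steadiest probe set of each gene (chosen after seeing the data). The count of core genes over 3-fold higher at P6, 2 as reported, was 1 with a floor of 0.1 and 0 with medians over cells, and with medians over cells 1 regulatory gene, Psmc6, was over 3-fold higher at P30. With each cell left out in turn, the core median ran from 0.09 to 0.55, the regulatory median from 0.34 to 0.64, the immunoproteasome median from 0.43 to 1.07 and that of the partner genes from 0.25 to 0.75. The counts over 3-fold higher at P6 then ran from 0 to 3 in the core and from 2 to 5 in the regulatory particle, and those higher at P30 from 0 to 0 and from 0 to 1. Of 17 alternatives, Psmg4 kept its 3-fold difference in 16, Psmb5 in 15, Psmd8 and Psmc3ip in 14, Psmb10 in 13, Psmd5 in 12 and Psmg1 in 9. Psmb5, Psmb10, Psmd5, Psmd8 and Psmg1 have 1 probe set each, so the alternatives that choose or combine probe sets could not change them. The sign of a member turned under 7 settings other than leaving out a cell. Medians over probe sets turned 4 (Psmd7 at -1.04, Psme3 at -0.77, Psmd13 at 0.20, Psma6 at -0.07), and leaving out the _x_at and _s_at probe sets turned Psma1 (-0.38) and Psmc1 (-0.13). The steadiest probe set turned 10: Psmc6 (2.09), Psmd7 (-1.13), Psmg3 (-1.26), Psmf1 (0.71), Psma3 (0.61), Psme4 (0.59), Psma1 (-0.52), Psmg2 (0.35), Psme3 (-0.26) and Psmc1 (-0.13). Medians over cells turned 7, with values from -0.27 to 0.33, spike scaling 7, median scaling 1 and the floor of 0.1 turned 2. Except where a value of single probe sets or cells is given in the report, the cause was not tested. No paired analysis was possible because no comparison of the ages comes from a test and the replicate numbers of the 2 ages name different cells. With 1 array a cell and 5 cells an age, small differences cannot be told from the spread between cells.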
